A study of Mus musculus with 10 samples.

Results

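Adipocytes and macrophages that had shared a bilayer culture were compared with each other, gene by gene, to describe which ligand, receptor and metabolic genes were split between the layers. The 3 samples titled as bilayer adipocytes and the 2 titled as bilayer macrophages were chosen by their labels, 5 of the 10 samples of a study of signalling between cell types across a membrane. The study grew both lines in the bilayer and also alone as monolayers, with 3 adipocyte and 2 macrophage monolayer samples that serve below as a second comparison of the lines. Messenger RNA was measured on Illumina bead arrays, on which each gene is read by 1 or more probes as a fluorescence intensity in arbitrary units.

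The adipocytes were 3T3-L1 cells, a mouse embryo fibroblast line that turns into fat-storing cells after treatment with IBMX, dexamethasone and insulin. They were lifted enzymatically on day 8 of differentiation and seeded on the floor of a dish. The macrophages were RAW 264.7 cells, a virus-transformed mouse macrophage line, scraped off and left for 18 h to attach to a hanging polycarbonate membrane with 0.4 µm pores. The layers then shared medium for 24 h. The labels give no genetic change and no drug during the shared culture for any group, and they do not describe how the monolayer dishes were handled in this step. Each sample was a pool of 5 dishes, called a biological replicate in the design text, with no statement that the pools came from separate cultures, so p-values reflect how far these samples spread, and that spread may be technical. Both are cell lines rather than cells of fat tissue, and line, seeding surface and detachment method cannot be told apart in the comparison.

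Signalling between cell layers needs a ligand made on one side and a receptor carried on the other. Adipocytes store triglyceride in lipid droplets, release it by lipolysis and secrete hormones called adipokines, and macrophages engulf particles, sense microbial molecules and secrete chemokines and cytokines. In fat tissue macrophages lie close to adipocytes, and signals such as colony-stimulating factor, chemokines and tumour necrosis factor are known to pass between them.

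The deposited intensities had almost identical distributions on the 5 bilayer arrays, with medians of 5.08 to 5.10, and 41.9% of probes exceeded a noise bound of 10.9 units on each. Across all 45281 probes, with no filter on dim ones, the log values correlated at 0.988 to 0.990 between bilayer arrays of the same line. Between lines they correlated at 0.838 to 0.843. The labelled cell types matched their marker genes. All 13 tested adipocyte markers, of 14 on the array, were higher in adipocytes, and their summed intensity was 79578 to 87038 per array in adipocytes against 3454 to 4102 in macrophages. All 13 tested macrophage markers, of 14 on the array, were lower, with sums of 316 to 383 in adipocytes against 78966 to 81131 in macrophages. In each list 10 of the 13 were not above noise in the other line, so the filter fixed their direction. Adipoq, Cidec, Plin1 and Pparg were not above noise on any bilayer macrophage array, and Lyz2, Ptprc, Spi1 and Adgre1 on none of the bilayer adipocyte arrays. Markers of fibroblasts and preadipocytes were also detected in the adipocyte samples, with sums of 21962 to 22814 in adipocytes against 109 to 142 in macrophages. All 9 tested were higher in adipocytes, but 8 were not above noise in macrophages, so the filter fixed their direction. Dlk1, the preadipocyte factor, read 11378, 11348 and 11584 in bilayer adipocytes, against -2.12 and 6.07 in bilayer macrophages. Whether the adipocytes themselves or other cells carried this RNA was not tested. In such bulk samples fewer cells of a type and less RNA per cell cannot be told apart. Of 9 endothelial markers 6 were not above noise on any array of adipocytes and 6 on any of macrophages, as were 6 and 5 of 9 lymphoid markers. Of 9 neutrophil and mast cell markers 5 were above noise on at least 1 adipocyte array and 2 on at least 1 macrophage array. Among them S100a8 was detected in both lines, with 609 in adipocytes and 743 in macrophages, while S100a9, Ngp, Mpo and Mcpt4 were not above noise in either.

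Of 11416 genes tested, 8175 (71.6%) differed between the layers, 4118 (36.1%) higher and 4057 (35.5%) lower in adipocytes (limma, Benjamini-Hochberg adjusted p at 0.05, two-sided). The median log2 difference over all tested genes was -0.02. Counts for the lists below are to be read beside 36.1% and 35.5%. At least 10-fold differences were found for 505 genes (4.42%) higher and 410 (3.59%) lower in adipocytes. The groups did not overlap for 8905 genes (78.0%). Folds are differences of mean log2(intensity + 16) and understate the change of dim genes. Where a gene was not above noise on any array of a line its fold is a lower bound, written "at least", which was the case for 963 genes (8.44%) called higher and 641 (5.61%) called lower in adipocytes.

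Ranked by the fitted log2 difference, which for genes not above noise in a line exceeds the bound printed as a fold, the 10 largest differences on the adipocyte side were Scd1, Rarres2, Adipoq, Igfbp7, Cav1, Col6a1, Cidec, Cd63, Hsd11b1 and Serpinh1. Scd1, the desaturase that makes oleate, read 23558, 21569 and 22978 in bilayer adipocytes, against -0.664 and 0.365 in bilayer macrophages, at least 844-fold higher in adipocytes (adjusted p = 6.8e-19). Cav1, the coat protein of caveolae, was at least 636-fold higher in adipocytes (adjusted p = 6.8e-19), Igfbp7, a secreted binding protein, was at least 695-fold higher and Hsd11b1, which regenerates active glucocorticoid, was at least 499.6-fold higher. Cd63, a tetraspanin of late endosomes, and Serpinh1, a collagen chaperone, were at least 508-fold and at least 553-fold higher. The 10 largest fitted differences on the macrophage side were Laptm5, Ckb, Coro1a, Lyz2, Ccl4, Cd52, Lyz1, Pf4, Cyba and C1qb. Laptm5, which sits in lysosomal membranes of leukocytes, read -6.25, 0.700 and -5.24 in bilayer adipocytes, against 16304 and 17098 in bilayer macrophages, at least 621-fold lower in adipocytes (adjusted p = 3.74e-18). Ckb, brain-type creatine kinase, read -1.02, 0.388 and -5.13 in bilayer adipocytes, against 16029 and 16669.5 in bilayer macrophages, a difference of at least 608-fold. Coro1a, an actin-binding protein of leukocytes, was 829.5-fold (above noise on 1 of 3 adipocyte arrays) lower, Cd52, a leukocyte surface peptide, at least 388-fold lower and Cyba, a subunit of the phagocyte oxidase, at least 321-fold lower. Lyz1 and Lyz2 are near-identical lysozyme genes whose probes may share signal, so their 600.0-fold (above noise on 2 of 3 adipocyte arrays) and at least 526-fold lower values are uncertain as separate values. Only called genes whose groups did not overlap could enter this ranking, so the separation of their arrays is part of the choice and not a result.

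Upstream sequences are shown for 1 adipocyte gene and 3 macrophage genes, because GAGGAAG, a short motif, was more frequent in promoters on the macrophage side. The motif GAGGAAG holds the core letters bound by PU.1, the myeloid factor encoded by Spi1, whose own transcript read 5.57, 3.40 and 9.97 in bilayer adipocytes, against 592 and 587 in bilayer macrophages. In the 250 bases before the start, on either strand, GAGGAAG was present in 21.3% (66 of 310) of promoters of genes at least 10-fold lower in adipocytes and in 12.9% (48 of 373) of those at least 10-fold higher, against 10.9% (1003 of 9235) of all tested genes and 10.4% of the 27025 genes in the promoter table. Other motifs gave 8.39% on the macrophage side, 8.31% on the adipocyte side and 7.51% of all tested genes for TATAAA, 8.39%, 6.43% and 8.40% for CACGTG, 44.8%, 52.5% and 57.1% for GGGCGG and 1.61%, 4.02% and 3.15% for TGACTCA. No one of these 5 motifs contains another, GAGGAAG was picked after its shares were seen, and longer or spaced motifs that were also looked at are not shown. A match is a run of letters and not a measured site. The sequences, from RefSeq on GRCm38.p6 and written 5′ to 3′ in the direction of the gene, carry GAGGAAG or its reverse complement in capitals. The macrophage genes, picked among strongly split members that hold the motif, encode platelet factor 4, a complement C1q chain and a C-type lectin receptor, and the Adipoq window holds no match.
Pf4, chr5:90772185-90772434, plus strand: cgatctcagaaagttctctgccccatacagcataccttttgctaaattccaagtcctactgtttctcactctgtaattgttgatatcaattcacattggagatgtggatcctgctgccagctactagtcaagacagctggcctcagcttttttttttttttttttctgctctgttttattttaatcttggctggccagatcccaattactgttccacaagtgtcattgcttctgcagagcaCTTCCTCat
C1qc, chr4:136892915-136893164, minus strand: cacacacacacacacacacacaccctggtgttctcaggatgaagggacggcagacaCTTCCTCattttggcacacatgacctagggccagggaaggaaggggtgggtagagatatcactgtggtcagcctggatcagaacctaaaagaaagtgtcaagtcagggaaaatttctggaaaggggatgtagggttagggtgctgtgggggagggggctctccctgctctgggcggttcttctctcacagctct
Clec4d, chr6:123261857-123262106, plus strand: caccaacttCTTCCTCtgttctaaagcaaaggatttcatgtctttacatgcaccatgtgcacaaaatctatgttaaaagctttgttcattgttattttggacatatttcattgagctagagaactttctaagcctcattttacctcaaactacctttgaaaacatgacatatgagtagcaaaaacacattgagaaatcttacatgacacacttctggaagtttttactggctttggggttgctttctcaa
Adipoq, chr16:23146286-23146535, plus strand: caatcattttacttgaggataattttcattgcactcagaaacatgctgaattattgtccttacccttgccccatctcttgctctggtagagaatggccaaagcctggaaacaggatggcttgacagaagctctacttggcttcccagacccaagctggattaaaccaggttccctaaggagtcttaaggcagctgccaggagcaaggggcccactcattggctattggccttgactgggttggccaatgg

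Ligand genes were more often higher on the adipocyte side. Of 243 ligand genes written into lists, 228 were on the array and 154 were tested, of which 92 were higher and 42 lower in adipocytes and 20 did not pass. Their median log2 difference was 1.07 (0.81 with genes not above noise in a line at their bound). The adipocyte side held adipokines, matrix proteins and growth factors, and the macrophage side held tumour necrosis factor family members, complement C1q and a set of chemokines. A gene tested only because 1 line expressed it had to differ, so the counts over tested members describe the lists and do not test them.

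**Figure D1:**
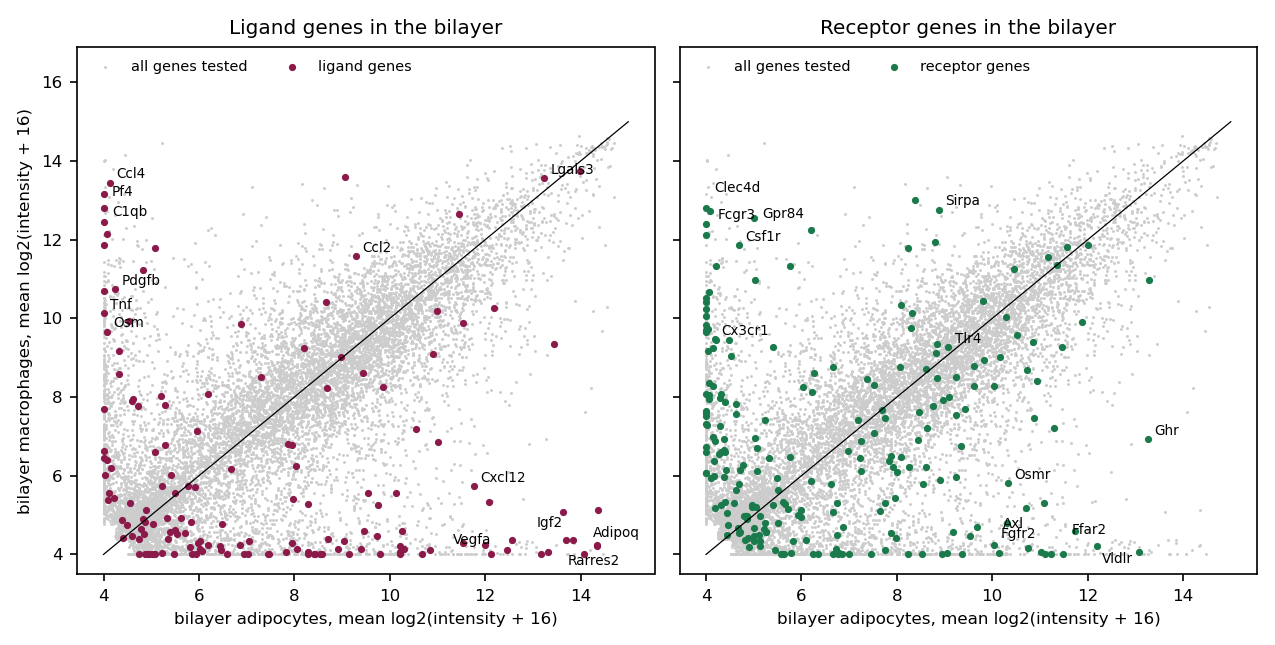
Each point is 1 gene at its mean log2(intensity + 16) over the 3 bilayer adipocyte arrays (horizontal axis) and the 2 bilayer macrophage arrays (vertical axis), with ligand genes (left panel) and receptor genes (right panel) coloured over all 11416 tested genes in grey; the line marks equal values. Ligand genes crowd along the lower edge, where macrophages have no signal, and receptor genes lie along both edges.

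Adipokines were mostly higher in adipocytes, with 10 of 12 tested genes higher, 1 lower and 1 not passing. Rarres2, which encodes the attracting protein chemerin, read 20871, 20235 and 20882 in bilayer adipocytes, against 3.79 and 1.26 in bilayer macrophages, at least 769-fold higher in adipocytes (adjusted p = 6.8e-19), while another, dimmer probe of the gene pointed the other way, with means of 53.5 in adipocytes and 156 in macrophages. Adipoq, the hormone adiponectin, read 18437, 22129.5 and 22090.3 in bilayer adipocytes, against 0.748 and 5.26 in bilayer macrophages, at least 774-fold higher in adipocytes (adjusted p = 2.59e-17). Hp, haptoglobin, which binds free haemoglobin, was at least 381-fold higher in adipocytes (adjusted p = 3.61e-17). For these 3 genes all adipocyte arrays were bright and no macrophage array was above noise. Angptl4, an inhibitor of lipoprotein lipase, was measurable on both sides with 11203 ± 971 in adipocytes and 639 ± 10.2 in macrophages, 17.1-fold higher in adipocytes (adjusted p = 2.29e-15). Lep, the satiety hormone leptin, was dim even in adipocytes, at 42.0, 69.2 and 63.8 in bilayer adipocytes, against 1.26 and 4.64 in bilayer macrophages, and was at least 2.73-fold higher in adipocytes (adjusted p = 1.66e-06). Retn, resistin, was at least 4.57-fold higher and Fstl1, a secreted glycoprotein, 50.9-fold (above noise on 1 of 2 macrophage arrays) higher. Metrnl, a hormone-like secreted protein, ran the other way with 13.9, 27.5 and 22.6 in bilayer adipocytes, against 252 and 242 in bilayer macrophages, and was 7.13-fold lower in adipocytes (adjusted p = 2.9e-07). Fgf21, a metabolic hormone, did not pass, with 5.81 in adipocytes and 6.10 in macrophages.

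Chemokines, the small proteins that attract leukocytes, lay on both sides in each family. Of 14 tested CC chemokines 7 were higher and 7 lower in adipocytes, and of 10 others 4 were higher, 5 lower and 1 did not pass. On the macrophage side Ccl4 read 2.65, 2.25 and -2.60 in bilayer adipocytes, against 11288 and 11099 in bilayer macrophages, at least 417-fold lower in adipocytes (adjusted p = 2.4e-17). Ccl3 read 2.25, -2.40 and -2.36 in bilayer adipocytes, against 4720.4 and 4276 in bilayer macrophages, at least 168-fold lower in adipocytes (adjusted p = 1.6e-15), and Pf4, platelet factor 4, -7.84, -3.44 and -3.81 in bilayer adipocytes, against 7842 and 10690.3 in bilayer macrophages, at least 341-fold lower in adipocytes (adjusted p = 3.26e-16). These 3 genes were bright on both macrophage arrays and not above noise on any adipocyte array. Ccl12, which attracts monocytes, was at least 139.7-fold lower, Cxcl16, a membrane-bound chemokine and scavenger, 84.5-fold (above noise on 2 of 3 adipocyte arrays) lower and Cxcl2, which attracts neutrophils, at least 14.2-fold lower. On the adipocyte side Cxcl1, which also attracts neutrophils, read 1829, 1180.2 and 884 in bilayer adipocytes, against -3.98 and 3.44 in bilayer macrophages, at least 46.7-fold higher in adipocytes (adjusted p = 5.54e-12). Cxcl13, which attracts B cells, was at least 8.41-fold higher, Ccl6 7.96-fold higher and Ccl27a at least 4.84-fold higher. Ccl2, the main chemokine for monocytes, and Ccl7 were measured in both lines. Ccl2 read 589.8, 675 and 576 in bilayer adipocytes, against 3002 and 3152 in bilayer macrophages, 4.92-fold lower in adipocytes (adjusted p = 2.01e-10). Ccl7 read 2165, 1899.7 and 1985 in bilayer adipocytes, against 1170.0 and 1136 in bilayer macrophages, 1.74-fold higher in adipocytes (adjusted p = 3.23e-06). Cxcl10, an interferon-induced chemokine, was near noise on both sides, with 13.8 in adipocytes and 19.8 in macrophages.

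Cytokine ligands of the tumour necrosis factor and interleukin lists were more often lower in adipocytes, and those of the interleukin-6 and haematopoietic list more often higher. Of 7 tested tumour necrosis factor family ligands 5 were lower in adipocytes and none was called higher, led by Tnf and Ltb, whose values are given with their receptors below. Tnfsf13b, the B cell survival factor BAFF, was 10.0-fold (above noise on 1 of 3 adipocyte arrays) lower and Tnfsf9, the ligand of the costimulatory receptor 4-1BB, 8.17-fold (above noise on 2 of 3 adipocyte arrays) lower. Tnfsf8 and Lta did not pass, with 14.6 in adipocytes and 8.41 in macrophages for Tnfsf8 and 11.5 in adipocytes and 9.24 in macrophages for Lta. Of 10 tested interleukins 6 were lower in adipocytes. Il16, which attracts leukocytes, was at least 7.73-fold lower, Il18, released by inflammasomes, 3.71-fold lower and Il1b, a central inflammatory cytokine, at least 3.13-fold lower, with 0.388, 0.446 and 1.70 in bilayer adipocytes, against 76.0 and 61.1 in bilayer macrophages. Il34, a ligand of the Csf1 receptor, was the sole interleukin called higher, and Il6, Il10, Il12a and Ifnb1, named here after their values were seen, did not exceed noise on 2 of the 5 arrays and were not tested. Of 7 tested interleukin-6 family and haematopoietic factors 4 were higher and 1 lower, with a median log2 difference of 1.16. Ctf1, cardiotrophin of the interleukin-6 family, was at least 15.5-fold higher in adipocytes (adjusted p = 3.21e-12). Kitl, the ligand of the Kit receptor, was 3.26-fold (above noise on 1 of 2 macrophage arrays) higher, with Clcf1, another family member, 2.23-fold (above noise on 1 of 2 macrophage arrays) higher on all arrays and not called without macrophage bilayer replicate 1, at 0.80 on the log2 scale. Csf3 and Flt3l, growth factors for blood cell precursors, did not pass and had means under 15 units in both lines.

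Growth factors for receptor tyrosine kinases were mostly higher in adipocytes, 22 of 28 tested, with 4 lower and a median log2 difference of 1.90 (1.62 with genes not above noise in a line at their bound). For 15 of the higher genes the macrophages were not above noise. Igf2, a fetal insulin-like growth factor, read 13739, 13028 and 12971 in bilayer adipocytes, against 3.08 and 6.45 in bilayer macrophages, at least 493-fold higher in adipocytes (adjusted p = 1.95e-17). Vegfa, the main angiogenic factor, read 6473, 5472 and 4950.1 in bilayer adipocytes, against 2.71 and -0.175 in bilayer macrophages, at least 209-fold higher in adipocytes (adjusted p = 1.39e-16). Ptn, pleiotrophin, a heparin-binding growth factor, was at least 43.9-fold higher. The lower genes were Pdgfb, treated with its receptor below, Mdk, midkine, a relative of Ptn, with 14.5, 29.8 and 27.3 in bilayer adipocytes, against 231 and 187 in bilayer macrophages, Angpt2, an antagonist of angiopoietin signalling, with 139, 127 and 158 in bilayer adipocytes, against 361 and 340.4 in bilayer macrophages, and Fgf9, with 1.71 in adipocytes and 27.1 in macrophages. Ptn and Mdk, the pair of related factors, thus lay on opposite sides. Hbegf, an EGF receptor ligand, and Mst1 did not pass.

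Matrix, transforming growth factor and guidance ligands were also higher on the adipocyte side. Matrix ligands were higher for 19 of 22 tested genes, with a median log2 difference of 5.34 (4.88 with genes not above noise in a line at their bound), and these samples also carried the fibroblast and preadipocyte markers described above, whose part in the result was not tested. Col6a1, a collagen chain, read 15203, 18679 and 17583 in bilayer adipocytes, against 0.445 and -7.89 in bilayer macrophages. Sparc, a matrix-binding glycoprotein, read 15071, 14730.4 and 14219 in bilayer adipocytes, against -4.14 and 10.6 in bilayer macrophages. Bgn, the proteoglycan biglycan, was 606-fold higher in adipocytes (adjusted p = 5.95e-17), and Col4a2, a basement membrane collagen, at least 345-fold higher in adipocytes (adjusted p = 2.59e-17). Lgals3, a sugar-binding galectin, was the sole matrix ligand called lower, by a small difference, with 9633 ± 595 in adipocytes and 12141 ± 480.0 in macrophages. Lgals9 read 491 in adipocytes and 507 in macrophages and did not pass. Of 7 tested transforming growth factor family ligands Bmp1, a protease of procollagen, Inha, Tgfb2 and Inhba were higher, with Tgfb2 at 229, 239.8 and 232 in bilayer adipocytes, against 18.7 and 35.4 in bilayer macrophages, 5.91-fold higher in adipocytes (adjusted p = 6.86e-08). Tgfb1 and Tgfb3 were lower, with Tgfb3 at 33.3, 61.7 and 47.3 in bilayer adipocytes, against 125 and 125 in bilayer macrophages, 2.27-fold lower in adipocytes (adjusted p = 0.000103), so the 3 isoforms measured did not lie on the same side. Guidance ligands were higher for 13 and lower for 3 of 17 tested. Slit3, a repulsive guidance protein, was at least 44.5-fold higher in adipocytes (adjusted p = 3.37e-15), Slit2 was at least 12.8-fold higher, with a dim probe of it near equal in both lines, and Efna5, an ephrin, 23.6-fold higher. Sema4a, Sema4d and Sema6b, which are membrane-bound semaphorins, were lower, with Sema4a at 92.2, 114 and 99.1 in bilayer adipocytes, against 994 and 835 in bilayer macrophages. Among the Wnt proteins Wnt5a read 433, 479 and 491 in bilayer adipocytes, against 3.63 and -3.46 in bilayer macrophages and was at least 18.0-fold higher in adipocytes (adjusted p = 4.88e-13). Wnt6 read 6.51, 2.87 and 13.7 in bilayer adipocytes, against 926 and 995 in bilayer macrophages and was 41.9-fold lower in adipocytes, above noise on 1 of 3 adipocyte arrays (adjusted p = 2.71e-12).

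Complement and clotting genes lay on both sides, with 5 higher and 6 lower of 13 tested. The 3 C1q chains, which recognise immune complexes, were on the macrophage side, with C1qa at 0.0990, -2.63 and -5.46 in bilayer adipocytes, against 1661 and 1619 in bilayer macrophages. C1qb was at least 266-fold lower in adipocytes (adjusted p = 7.86e-17) and C1qc at least 209.9-fold lower in adipocytes (adjusted p = 8.13e-17). C4b, which acts later in the classical pathway, and Cfb, the protease of the alternative pathway, were on the adipocyte side, with C4b at 724, 702 and 761 in bilayer adipocytes, against 27.3 and 35.4 in bilayer macrophages and Cfb at 163, 163 and 157 in bilayer adipocytes, against -10.8 and 0.490 in bilayer macrophages. C4b was 15.8-fold higher and Cfb at least 6.57-fold higher. Cfp, properdin, which stabilises the alternative pathway, is named after its values were seen and lay opposite to Cfb, with 518 in adipocytes and 12401 in macrophages, 23.3-fold lower in adipocytes (adjusted p = 3.99e-14). The plasminogen activators were also split, since Plat read 119.6, 105 and 124 in bilayer adipocytes, against -2.46 and 9.27 in bilayer macrophages and was at least 4.91-fold higher in adipocytes (adjusted p = 1.65e-08). Plau read 9.71, 21.4 and 23.6 in bilayer adipocytes, against 3597 and 3474 in bilayer macrophages and was 106-fold lower in adipocytes, above noise on 2 of 3 adipocyte arrays (adjusted p = 8.53e-13). Thbs2, thrombospondin, was at least 60.5-fold higher. F13a1, a clotting transglutaminase, was at least 3.26-fold lower.

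Receptor genes were more evenly divided. Of 347 written, 317 were on the array and 228 were tested, of which 97 were higher and 92 lower in adipocytes and 39 did not pass, with a median log2 difference of 0.15 (0.14 with genes not above noise in a line at their bound). All 10 tested chemoattractant receptors, of 20 on the array, were lower in adipocytes, and 19 of 24 tested receptor tyrosine kinases were higher.

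Chemoattractant receptors were not above noise on any adipocyte array for 9 of the 10, which therefore could enter the test through the macrophage arrays alone. Gpr183, a receptor for oxysterols that guides leukocytes, read -4.74, -3.71 and -5.75 in bilayer adipocytes, against 1305 and 1398 in bilayer macrophages, at least 50.8-fold lower in adipocytes (adjusted p = 3.52e-14). C5ar1, the receptor for the complement fragment C5a, read 4.04, 1.52 and -4.98 in bilayer adipocytes, against 311 and 279 in bilayer macrophages, at least 11.5-fold lower in adipocytes (adjusted p = 4.7e-11). Cxcr3 was at least 10.0-fold lower. Both groups were fully separated for each of them, as they were for 78.0% of all tested genes. For genes that entered through the macrophage arrays alone this separation is not read as a result. The other 10 receptors on the array, Cmklr1 for chemerin among them, did not exceed noise on 2 of the 5 arrays and were not tested.

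Receptors for microbes and immune complexes were mostly lower in adipocytes, and the Fc receptors had the lowest median of the receptor lists. Of 14 tested Fc and related receptors 13 were lower, with a median log2 difference of -4.09 (-3.74 with genes not above noise in a line at their bound). Fcgr3, which binds antibody complexes, read -1.27, 2.72 and -4.54 in bilayer adipocytes, against 6733 and 6931 in bilayer macrophages, at least 255-fold lower in adipocytes (adjusted p = 1.38e-16), and its inhibitory relative Fcgr2b was at least 199.8-fold lower in adipocytes (adjusted p = 1.03e-16). Tyrobp, the adaptor through which several of them signal, was at least 165-fold lower, and Lilrb4a, an inhibitory receptor, at least 54.6-fold lower. Siglec1, a sialic acid-binding receptor used as a macrophage marker, was the sole member called higher in adipocytes, at 242, 238 and 240.4 in bilayer adipocytes, against 55.8 and 49.9 in bilayer macrophages, 3.72-fold higher in adipocytes (adjusted p = 1.36e-08). Of 20 tested pattern recognition receptors 16 were lower, 2 higher and 2 did not pass. Clec4d, a lectin for fungal glycolipids, read 0.139, -6.03 and -2.23 in bilayer adipocytes, against 6679 and 7566 in bilayer macrophages, at least 265-fold lower in adipocytes (adjusted p = 5.96e-16). Tlr13 and Tlr7, which sense microbial RNA, were at least 60.6-fold and at least 45.0-fold lower. Cd14, the lipopolysaccharide co-receptor, was measured in both lines with 292, 327 and 328 in bilayer adipocytes, against 8463 and 7928 in bilayer macrophages, 24.8-fold lower in adipocytes (adjusted p = 7.87e-15), whereas Tlr4, the lipopolysaccharide receptor itself, read 542, 479 and 556 in bilayer adipocytes, against 581 and 624 in bilayer macrophages and did not pass, with a log2 difference of -0.19 ± 0.10 (SE), which was 0.39 and called with the mean of its probes. Nod1, a cytoplasmic sensor of bacterial wall fragments, was higher in adipocytes with 616, 499.7 and 661 in bilayer adipocytes, against 34.4 and 61.0 in bilayer macrophages, 9.70-fold higher in adipocytes (adjusted p = 8.19e-10), and its relative Nod2 was at least 3.65-fold lower.

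Receptors for growth factors were mostly higher in adipocytes. Fgfr2 read 2247, 2474 and 2441 in bilayer adipocytes, against -1.06 and -3.77 in bilayer macrophages, at least 89.3-fold higher in adipocytes (adjusted p = 5.81e-17). Axl, a receptor for Gas6, read 1635, 1719.7 and 1737 in bilayer adipocytes, against 3.62 and 0.0970 in bilayer macrophages, at least 63.7-fold higher in adipocytes (adjusted p = 1.61e-15). Fgfrl1, a fibroblast growth factor receptor with no kinase domain, was 54.3-fold (above noise on 1 of 2 macrophage arrays) higher. Macrophage arrays did not exceed noise for Fgfr2 and Axl, while Fgfrl1 had a macrophage mean of 27.5. Mertk, Epha2 and Epha3 were the receptor tyrosine kinases called lower. Ghr, the growth hormone receptor, read 9869, 9744 and 9938 in bilayer adipocytes, against 95.1 and 117 in bilayer macrophages, 81.2-fold higher in adipocytes (adjusted p = 1.39e-16). Among receptors of the transforming growth factor family 8 of 13 were higher and 3 lower, with Tgfbr3, the co-receptor betaglycan, 45.8-fold higher and Bmpr1a 5.93-fold higher. Amhr2 and Acvrl1 were lower, as was Tgfbr2, given with its ligand Tgfb1 below. Notch1 was 7.96-fold higher, and Fzd6 was the sole tested Wnt receptor called lower, at 9.35 in adipocytes and 39.2 in macrophages, a call lost without a filter on dim probes.

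Cytokine receptors lay on both sides. Of 19 tested tumour necrosis factor receptors 8 were higher and 7 lower in adipocytes. Cd40, a costimulatory receptor, read -1.60, -6.19 and -3.24 in bilayer adipocytes, against 832 and 960.5 in bilayer macrophages, at least 33.8-fold lower in adipocytes (adjusted p = 1.04e-13). Tnfrsf13b, a receptor for BAFF, was at least 30.9-fold lower in adipocytes (adjusted p = 2.67e-13). Tnfrsf11a, known as RANK, was 13.7-fold (above noise on 1 of 3 adipocyte arrays) lower. Tnfrsf25 and Cd27 were higher but dim, with 66.1 in adipocytes and -3.59 in macrophages for Tnfrsf25 and 39.3 in adipocytes and -0.0280 in macrophages for Cd27. Of 20 tested interleukin and interferon receptors 4 were higher and 10 lower. Il10ra, which binds interleukin 10, was at least 21.4-fold lower in adipocytes (adjusted p = 8.08e-13). Il7r was at least 9.92-fold lower. The receptors of interleukin 17 were split, with Il17rc at 1832, 1874 and 1904 in bilayer adipocytes, against 172 and 152 in bilayer macrophages and Il17ra at 2.60, 3.25 and 5.51 in bilayer adipocytes, against 92.0 and 72.8 in bilayer macrophages. Il17rc was 10.6-fold higher and Il17ra at least 3.64-fold lower. Ifngr1, a chain of the interferon gamma receptor, was 3.38-fold higher. Csf2ra, a chain of the receptor for granulocyte-macrophage colony-stimulating factor, was at least 39.4-fold lower.

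Receptors for metabolites, lipids and hormones were split gene by gene, 10 higher and 10 lower of 23 tested. Fatty acid receptors lay on both sides. Ffar2, for short-chain fatty acids, read 2799.9, 3060.2 and 2674 in bilayer adipocytes, against -6.59 and -5.65 in bilayer macrophages, at least 106-fold higher in adipocytes (adjusted p = 2.21e-16). Ffar4, for long-chain ones, read 3449.7 ± 871 in adipocytes and 8.68 ± 6.06 in macrophages, 139.5-fold higher in adipocytes, above noise on 1 of 2 macrophage arrays (adjusted p = 3.66e-13). Gpr84, for medium-chain ones, ran the other way with 26.3, 4.18 and 23.0 in bilayer adipocytes, against 6154 and 5925 in bilayer macrophages, 188-fold lower in adipocytes, above noise on 2 of 3 adipocyte arrays (adjusted p = 1.76e-12). Hcar1, the lactate receptor that restrains lipolysis, was at least 42.3-fold higher and Lpar4, for lysophosphatidic acid, at least 81.5-fold higher. P2ry6, for uridine diphosphate, was 67.0-fold lower in adipocytes (adjusted p = 5.9e-14), Ptgir, the prostacyclin receptor, 14.7-fold lower and Cnr2, a cannabinoid receptor of immune cells, at least 7.42-fold lower. Among nuclear receptors 16 of 21 were higher. Pparg, the master regulator of adipocyte differentiation, read 8369, 9658 and 7830.2 in bilayer adipocytes, against -3.50 and 1.33 in bilayer macrophages, at least 319.9-fold higher in adipocytes (adjusted p = 1.11e-17). Nr1h3, the oxysterol-sensing receptor LXR alpha, read 1325, 1236 and 1181 in bilayer adipocytes, against 6.66 and 17.6 in bilayer macrophages, 45.7-fold higher in adipocytes, above noise on 1 of 2 macrophage arrays (adjusted p = 5.57e-13). Among lipoprotein and scavenger receptors Vldlr was at least 176-fold higher in adipocytes (adjusted p = 6.65e-16) and Cd36, a fatty acid translocase, at least 3.79-fold higher, whereas Lrp8, a relative of Vldlr, was 31.3-fold (above noise on 1 of 3 adipocyte arrays) lower and Msr1 at least 95.8-fold lower. Itga7, a laminin-binding integrin, was at least 18.4-fold higher, and Itgb2, Itgam and Itgal, the leukocyte integrins, were 9.15-fold (above noise on 1 of 3 adipocyte arrays), at least 8.72-fold and 5.11-fold lower.

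Putting ligands and receptors together, 151 ligand and receptor pairs were written down and both genes were tested for 80. In 22 of them the ligand and the receptor differed in opposite directions, 14 with the ligand higher in adipocytes and the receptor higher in macrophages and 8 the other way. In 25 pairs both genes were higher in adipocytes, in 10 both were higher in macrophages, and in 23 at least 1 gene did not pass. With 36.1% of all genes called higher and 35.5% lower, pairs of opposite direction can be frequent whatever the list, so the pairs are described and their number is not read as a result. RNA for a ligand on one side and a receptor on the other does not show that protein crossed the membrane.

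**Figure D2:**
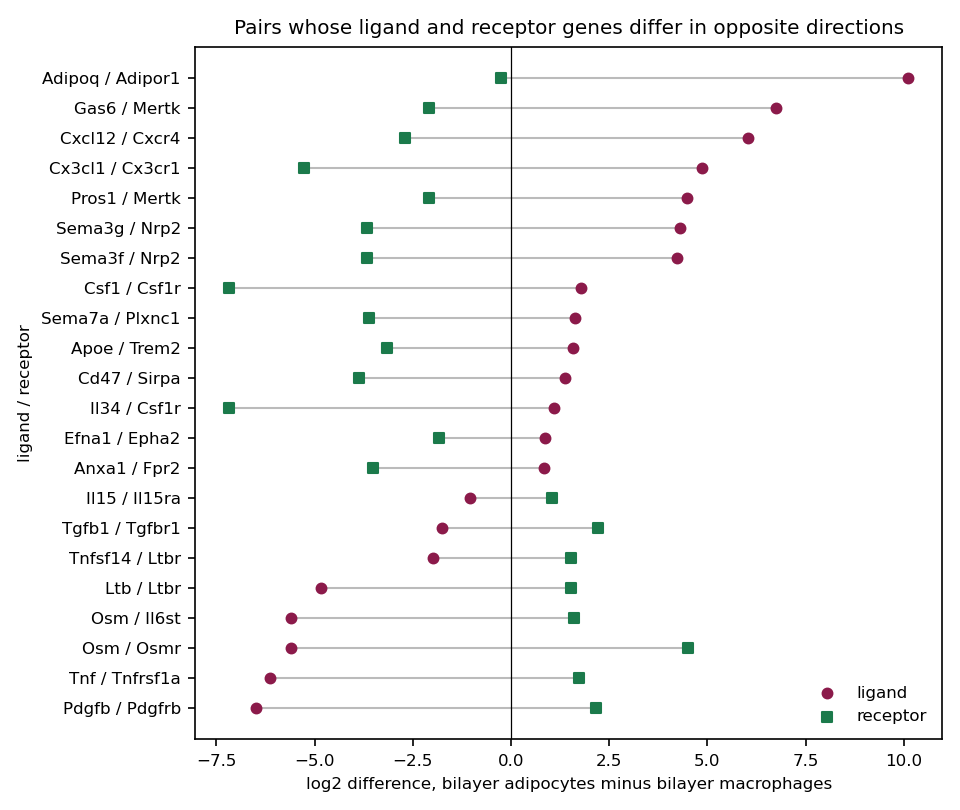
Each row is 1 of the 22 split pairs, with the log2 difference of bilayer adipocytes minus bilayer macrophages of its ligand (circle) and its receptor (square); values of genes not above noise in one line are fitted differences and not bounds. The 14 pairs at the top have the ligand on the adipocyte side and the 8 at the bottom have it on the macrophage side.

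In the direction from adipocyte to macrophage both chemokine receptors of split pairs were not above noise in adipocytes. Cxcl12, a chemokine that retains and recruits leukocytes, read 3400.0, 3669.7 and 3362 in bilayer adipocytes, against 36.5 and 38.8 in bilayer macrophages, 65.1-fold higher in adipocytes (adjusted p = 6.09e-16). Its receptor Cxcr4 read -6.42, -5.21 and 7.21 in bilayer adipocytes, against 106 and 97.1 in bilayer macrophages, at least 4.36-fold lower in adipocytes (adjusted p = 2.36e-07). Cx3cl1, the membrane-bound chemokine fractalkine, read 757, 648 and 662 in bilayer adipocytes, against 20.1 and -0.602 in bilayer macrophages, 29.2-fold higher in adipocytes, above noise on 1 of 2 macrophage arrays (adjusted p = 1.56e-10). Its receptor Cx3cr1 read 3.18, 1.18 and 2.45 in bilayer adipocytes, against 707 and 676 in bilayer macrophages, at least 26.3-fold lower in adipocytes (adjusted p = 2.24e-12). In both pairs the ligand separated the layers without overlap in one direction and the receptor in the other. Groups did not overlap for 78.0% of all tested genes. Anxa1, which encodes the lipocortin annexin, differed by less, with 508, 439 and 500.0 in bilayer adipocytes, against 264 and 261 in bilayer macrophages, 1.79-fold higher in adipocytes (adjusted p = 4.28e-06). Fpr2, the formyl peptide receptor it binds, read -0.809, -0.900 and -5.39 in bilayer adipocytes, against 162 and 173 in bilayer macrophages, at least 6.81-fold lower in adipocytes (adjusted p = 4.33e-10).

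Macrophage survival and clearance signals were split in the same direction. Csf1r, the receptor that macrophages depend on, read 4.65, 16.2 and 10.4 in bilayer adipocytes, against 3659 and 3783 in bilayer macrophages, 144-fold lower in adipocytes, above noise on 1 of 3 adipocyte arrays (adjusted p = 2.07e-12). Its ligand Csf1 read 209, 264 and 272 in bilayer adipocytes, against 47.6 and 75.7 in bilayer macrophages, 3.44-fold higher in adipocytes (adjusted p = 5.85e-07), so the macrophages themselves had lower but measurable Csf1. Il34, its other ligand, was close to noise with 6.99, 17.9 and 34.1 in bilayer adipocytes, against -3.98 and -4.81 in bilayer macrophages, above noise on 2 of 3 adipocyte arrays, and was at least 1.26-fold higher in adipocytes (adjusted p = 0.014). Without either macrophage bilayer replicate Il34 was not called, at 1.08 on the log2 scale. Gas6, which bridges dying cells to phagocytes, read 4291, 4189.6 and 4556 in bilayer adipocytes, against 37.4 and 14.9 in bilayer macrophages, 107-fold higher in adipocytes (adjusted p = 1.13e-13). Pros1, protein S, which has the same bridging role, read 836, 832 and 859 in bilayer adipocytes, against 27.7 and 17.8 in bilayer macrophages, 22.3-fold higher in adipocytes (adjusted p = 6.51e-13). Mertk, their receptor on phagocytes, read 78.7, 85.7 and 91.4 in bilayer adipocytes, against 435 and 398 in bilayer macrophages, 4.27-fold lower in adipocytes (adjusted p = 5.45e-10). Mertk was detected on all arrays of both layers, and Axl, the other receptor of Gas6, was on the adipocyte side as given above. Cd47, the signal that restrains engulfment, read 3688, 3316 and 3218 in bilayer adipocytes, against 1261 and 1349.9 in bilayer macrophages, 2.59-fold higher in adipocytes (adjusted p = 5.87e-10), and its receptor Sirpa read 424, 510.0 and 445 in bilayer adipocytes, against 6621 and 7287 in bilayer macrophages, 14.7-fold lower in adipocytes (adjusted p = 9.72e-14). Apoe, a lipid-carrying apolipoprotein, was 3.01-fold higher in adipocytes, above noise on 1 of 2 macrophage arrays (adjusted p = 3.57e-05). Trem2, a lipid-sensing receptor, read 432, 443 and 419 in bilayer adipocytes, against 4348 and 3592 in bilayer macrophages, 8.88-fold lower in adipocytes (adjusted p = 2.8e-13).

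**Figure D3:**
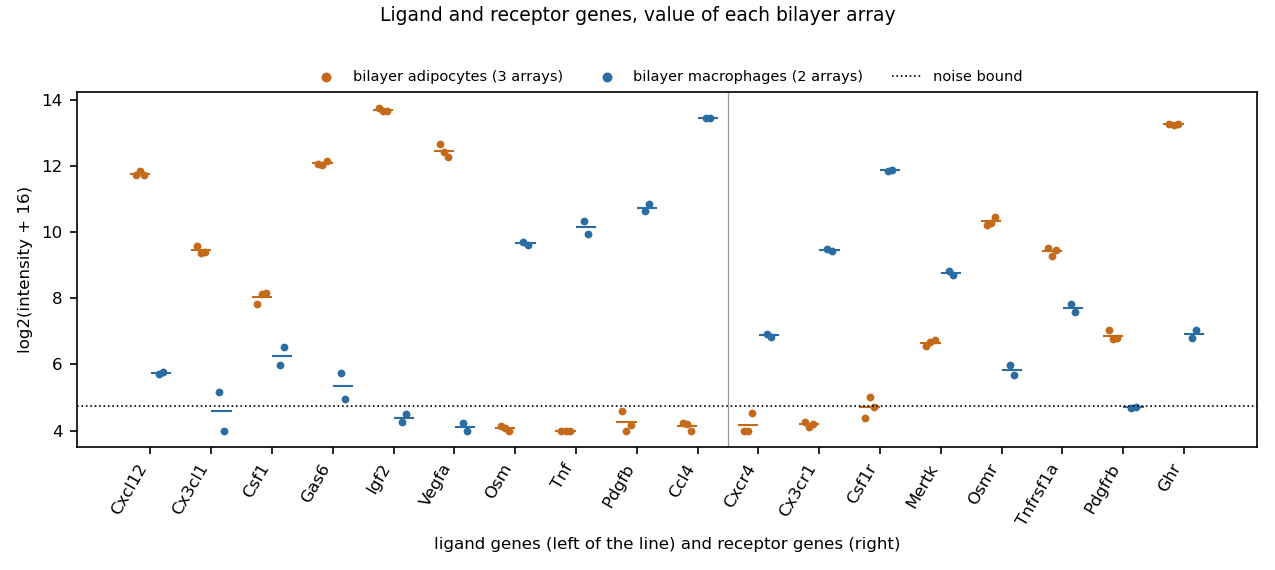
Points are the log2(intensity + 16) values of single arrays, with bilayer adipocytes on the left and bilayer macrophages on the right of each gene name and bars at the means; the dotted line is the noise bound of 10.9 units. No gene shown has overlapping groups, which held for 78.0% of all tested genes. Cxcr4, Cx3cr1, Osm, Tnf, Pdgfb and Ccl4 lie below the bound on all 3 adipocyte arrays.

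Guidance pairs and adiponectin completed this direction. Sema3f was at least 11.7-fold higher in adipocytes (adjusted p = 2.32e-12) and Sema3g at least 11.7-fold higher in adipocytes (adjusted p = 5.53e-11), both secreted semaphorins, and Nrp2, the neuropilin that binds them, read -4.76, 9.74 and 2.52 in bilayer adipocytes, against 217 and 253 in bilayer macrophages, at least 9.32-fold lower in adipocytes (adjusted p = 4.46e-09). Nrp2 was not called without macrophage bilayer replicate 1, where another probe stood for it at -0.69 on the log2 scale. Sema7a, a membrane-anchored semaphorin, was dim with 52.3, 32.9 and 38.0 in bilayer adipocytes, against 4.96 and -2.57 in bilayer macrophages, at least 2.10-fold higher in adipocytes (adjusted p = 0.000671), and its receptor Plxnc1 was at least 7.23-fold lower in adipocytes (adjusted p = 3.38e-10). Efna1 and Epha2, an ephrin and its receptor, were both dim, with Efna1 at 14.7, 46.9 and 32.0 in bilayer adipocytes, against 4.50 and 13.8 in bilayer macrophages, 1.83-fold higher in adipocytes, above noise on 1 of 2 macrophage arrays (adjusted p = 0.027), and Epha2 at 1.70, 4.19 and -0.0610 in bilayer adipocytes, against 47.6 and 48.3 in bilayer macrophages, at least 2.38-fold lower in adipocytes (adjusted p = 4.38e-06). Efna1 lost its call without adipocyte bilayer replicate 2 or 3 or macrophage bilayer replicate 1, at 0.64, 0.83 and 0.60 on the log2 scale. Adipor1, a receptor for adiponectin, was counted as macrophage-sided by a small difference, with 2964, 2949.9 and 3122 in bilayer adipocytes, against 3531 and 3702 in bilayer macrophages, 1.20-fold lower in adipocytes (adjusted p = 0.0056). Adipor2, the other receptor, is named after its values were seen and was higher in adipocytes with 9363, 10909 and 9724 in bilayer adipocytes, against 2052 and 1938 in bilayer macrophages, 4.97-fold higher in adipocytes (adjusted p = 2.19e-12), so adiponectin receptors were expressed in both layers.

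In the direction from macrophage to adipocyte the pairs were cytokines and growth factors. Tnf, which restrains fat storage in adipocytes, read -6.32, -6.36 and -4.99 in bilayer adipocytes, against 1275 and 972 in bilayer macrophages, at least 42.0-fold lower in adipocytes (adjusted p = 2.66e-13). Its receptor Tnfrsf1a read 726, 608 and 683 in bilayer adipocytes, against 209 and 176 in bilayer macrophages, 3.30-fold higher in adipocytes (adjusted p = 1e-08), and was thus present in both layers. The second receptor, Tnfrsf1b, named after its values were seen, had the opposite side with 20.6, 26.8 and 18.6 in bilayer adipocytes, against 128 and 184 in bilayer macrophages, 4.49-fold lower in adipocytes (adjusted p = 4.01e-06). Osm, oncostatin M, an interleukin-6 family cytokine, read 1.61, 1.05 and -6.68 in bilayer adipocytes, against 818 and 774 in bilayer macrophages, at least 30.2-fold lower in adipocytes (adjusted p = 1.84e-13). Osmr, its specific receptor chain, read 1182, 1219 and 1403 in bilayer adipocytes, against 47.0 and 34.9 in bilayer macrophages, 22.6-fold higher in adipocytes (adjusted p = 1.39e-12). Il6st, the shared chain, read 80.1, 113 and 68.3 in bilayer adipocytes, against 36.2 and 5.68 in bilayer macrophages, 3.02-fold higher in adipocytes, above noise on 1 of 2 macrophage arrays (adjusted p = 0.000433). Osm and Osmr were the sole pair of these 8 in which both genes differed by at least 10-fold. Pdgfb, a growth factor for mesenchymal cells, read 7.97, -0.469 and 1.82 in bilayer adipocytes, against 1563 and 1841 in bilayer macrophages, at least 63.7-fold lower in adipocytes (adjusted p = 8.19e-10). Pdgfrb, its receptor and a marker of fibroblasts as well, read 116, 92.5 and 95.1 in bilayer adipocytes, against 9.73 and 10.5 in bilayer macrophages, at least 4.34-fold higher in adipocytes (adjusted p = 8.65e-08). Tgfb1 read 420.5, 347 and 400.3 in bilayer adipocytes, against 1301 and 1405 in bilayer macrophages, 3.39-fold lower in adipocytes (adjusted p = 7.72e-10). Tgfbr1, a kinase chain of its receptor, read 2923, 2912 and 2646 in bilayer adipocytes, against 632 and 566 in bilayer macrophages, 4.62-fold higher in adipocytes (adjusted p = 1.55e-12). Tgfbr2, another receptor of Tgfb1, had the opposite side, with means of 2274 in bilayer adipocytes and 3016 in bilayer macrophages. Its log2 difference was -0.40 (adjusted p = 0.000186), so receptors of Tgfb1 were expressed in both layers. Ltb, lymphotoxin beta, was at least 21.4-fold lower in adipocytes (adjusted p = 3.02e-11) and Tnfsf14, known as LIGHT, at least 2.43-fold lower in adipocytes (adjusted p = 3.52e-06), while Ltbr, which binds both, read 366, 297 and 332 in bilayer adipocytes, against 108 and 99.1 in bilayer macrophages, 2.90-fold higher in adipocytes (adjusted p = 1.02e-08). Il15, a lymphocyte growth factor, was 2.06-fold lower in adipocytes (adjusted p = 6.8e-07), and Il15ra, its receptor, 2.05-fold higher in adipocytes (adjusted p = 0.0027).

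Metabolic genes were more often higher in adipocytes. Of 540 written, 492 were on the array and 442 were tested, of which 265 were higher, 120 lower and 57 did not pass, with a median log2 difference of 0.58 (0.53 with genes not above noise in a line at their bound). Fat storage and mitochondrial fuel use were higher in adipocytes, nucleotide synthesis was lower, and several pathways were divided between isoforms of the same enzyme.

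**Figure D4:**
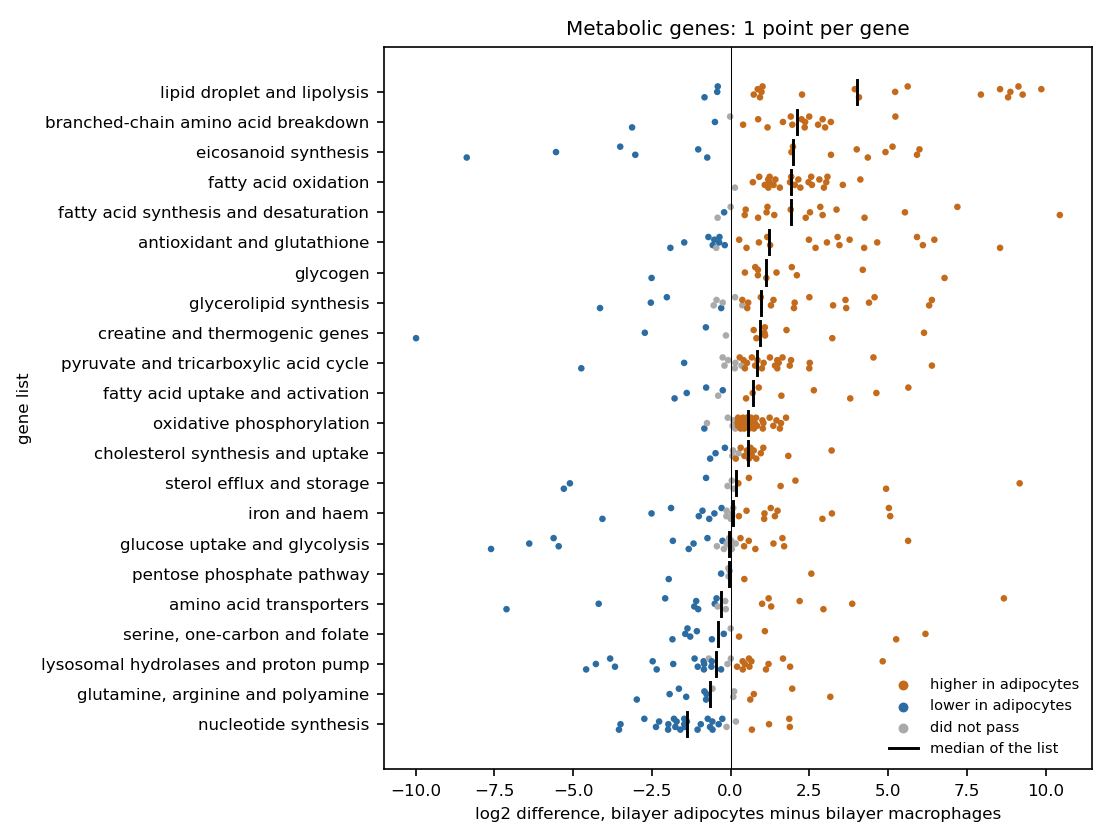
Each point is 1 tested gene at its log2 difference of bilayer adipocytes minus bilayer macrophages, in rows of metabolic gene lists ordered by their median (black bar), coloured by the test. Lipid droplet genes have the highest median and nucleotide synthesis genes the lowest.

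Lipid droplet genes had the highest median difference of the metabolic lists. Of 20 tested lipid droplet and lipolysis genes 17 were higher, 11 of them at least 10-fold, with a median log2 difference of 4.01. Cidec, which fuses droplets into large ones, read 14731, 16621 and 13594 in bilayer adipocytes, against -1.29 and -4.74 in bilayer macrophages, at least 556-fold higher in adipocytes (adjusted p = 1.87e-18). Plin4 and Plin1, droplet coat proteins, were at least 336-fold and at least 34.4-fold higher, and Lipe, hormone-sensitive lipase, read 1481, 1424 and 1272 in bilayer adipocytes, against 14.7 and 30.0 in bilayer macrophages, 37.4-fold higher in adipocytes (adjusted p = 2.55e-11). The coat proteins known from other cell types differed little. Plin2 read 1059.5, 1352 and 1073 in bilayer adipocytes, against 632 and 501 in bilayer macrophages, 2.02-fold higher in adipocytes (adjusted p = 1.19e-06). Plin3 read 579.5, 610.3 and 559.6 in bilayer adipocytes, against 802 and 754 in bilayer macrophages, 1.33-fold lower in adipocytes (adjusted p = 0.001). Hilpda, an inhibitor of lipolysis, and Lipa, the lysosomal acid lipase, were lower, with Lipa at 1692, 2212 and 1499 in bilayer adipocytes, against 3112 and 3217 in bilayer macrophages, 1.77-fold lower in adipocytes (adjusted p = 2.56e-05). Of 25 tested glycerolipid synthesis genes 16 were higher, with Dgat2, the last step of triglyceride synthesis, at 5655, 6258 and 5216 in bilayer adipocytes, against 57.6 and 46.8 in bilayer macrophages, 84.0-fold higher in adipocytes (adjusted p = 1.13e-15), and Gpd1, which supplies its glycerol backbone, 79.1-fold higher. The lysophospholipid acyltransferases Lpcat1 and Lpcat2 were lower, with Lpcat2 at -9.04, 0.228 and -2.71 in bilayer adipocytes, against 293 and 245 in bilayer macrophages, at least 10.6-fold lower in adipocytes (adjusted p = 5.71e-11).

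Fatty acid synthesis and oxidation genes were mostly higher in adipocytes, and the acyl-CoA synthetases called were lower. Fatty acid synthesis and desaturation genes were higher for 16 of 19, with Thrsp, a lipogenic regulator, at least 94.2-fold higher and Fads3, a desaturase-like protein, 46.4-fold higher. Elovl5, an elongase of polyunsaturated fatty acids, was the sole gene of that list called lower, by 1.15-fold, with 3275 in adipocytes and 3767 in macrophages, a call lost in 9 of the alternatives, at -0.13 on the log2 scale without adipocyte bilayer replicate 1 and -0.19 and -0.21 without macrophage bilayer replicate 1 or 2. Fabp4 and Fabp5, fatty acid carriers, were at least 14.7-fold and 13.9-fold higher. Lpl, which frees fatty acids from lipoproteins, was strongly expressed in both layers with 23243, 23464 and 23158 in bilayer adipocytes, against 3418 and 4030.0 in bilayer macrophages, 6.25-fold higher in adipocytes (adjusted p = 1.97e-13). The synthetases Acsl5, Acsl4 and Acsl3 were lower in adipocytes, with Acsl5 at 2049.6, 1990.3 and 2002 in bilayer adipocytes, against 6955 and 6932 in bilayer macrophages, 3.43-fold lower in adipocytes (adjusted p = 1.53e-12). Fatty acid oxidation genes were higher for 24 of 25, with a median log2 difference of 1.93. Crat, which buffers acetyl groups as carnitine esters, was 17.4-fold higher in adipocytes (adjusted p = 1.9e-14). Acads, a short-chain dehydrogenase, read 2126, 2144 and 2239 in bilayer adipocytes, against 243 and 257 in bilayer macrophages, 8.22-fold higher in adipocytes (adjusted p = 6.05e-13). Acadl, the long-chain enzyme, was the sole gene of that list that did not pass, with 513 in adipocytes and 471 in macrophages, though it was called without macrophage bilayer replicate 1, at 0.37 on the log2 scale.

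The tricarboxylic acid cycle and the respiratory chain were higher in adipocytes by smaller steps. Of 29 tested cycle genes 21 were higher, with Pcx, pyruvate carboxylase, at 2478, 2477 and 2585 in bilayer adipocytes, against 5.24 and 26.7 in bilayer macrophages, 84.0-fold higher in adipocytes, above noise on 1 of 2 macrophage arrays (adjusted p = 1.15e-12). Pdk4, which inhibits pyruvate oxidation, was at least 13.8-fold higher in adipocytes (adjusted p = 9.25e-13). Acod1, the enzyme that diverts aconitate into itaconate in activated macrophages, ran the other way at 24.1, 16.8 and 12.5 in bilayer adipocytes, against 843 and 915 in bilayer macrophages, 26.7-fold lower in adipocytes (adjusted p = 3.63e-12). Me2, a mitochondrial malic enzyme, was 2.78-fold lower while the cytosolic Me1 was 5.66-fold higher. Oxidative phosphorylation genes were higher for 32 of 38, none of them 10-fold, with a median log2 difference of 0.56. Ndufs3, a subunit of complex I, read 7243, 7268 and 7760.0 in bilayer adipocytes, against 2121 and 2234 in bilayer macrophages, 3.39-fold higher in adipocytes (adjusted p = 5.65e-12). Atp5e, the smallest subunit of the ATP synthase head, was the sole gene called lower, at 268 in adipocytes and 485 in macrophages. Branched-chain amino acid breakdown genes were higher for 15 of 18. Aldh6a1, of valine breakdown, read 3663, 3574 and 3384 in bilayer adipocytes, against 62.6 and 97.5 in bilayer macrophages, 37.6-fold higher in adipocytes (adjusted p = 4.29e-14). Bckdha, of the complex that commits these amino acids to breakdown, was 9.09-fold higher in adipocytes (adjusted p = 1.75e-13). Bcat1, the cytosolic transaminase of the first step, was lower with 217, 193 and 203 in bilayer adipocytes, against 1909 and 1900.4 in bilayer macrophages, 8.73-fold lower in adipocytes (adjusted p = 9.93e-12). Bckdk, the kinase that inhibits the complex, was 1.41-fold lower.

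Glucose handling was split between isoforms. Of 25 tested genes 8 were higher, 9 lower and 8 did not pass, with a median log2 difference of -0.05. Slc2a4, the insulin-regulated transporter GLUT4, read 1228, 1284 and 1061 in bilayer adipocytes, against 6.31 and 10.2 in bilayer macrophages, at least 44.7-fold higher in adipocytes (adjusted p = 1.38e-13). Slc2a6, a lysosomal transporter of activated macrophages, read 6.91, 6.73 and 2.40 in bilayer adipocytes, against 4104 and 4133 in bilayer macrophages, at least 154-fold lower in adipocytes (adjusted p = 5.07e-13), and Slc2a3, a high-affinity transporter, 10.3, 4.93 and 9.24 in bilayer adipocytes, against 1159 and 1171 in bilayer macrophages, at least 43.9-fold lower in adipocytes (adjusted p = 1.12e-13). Slc2a1, the ubiquitous transporter, did not pass, with 3613 ± 177 in adipocytes and 3937 ± 96.2 in macrophages. Aldoc, a neural-type aldolase, read -2.93, -1.64 and -4.25 in bilayer adipocytes, against 1346 and 1309.5 in bilayer macrophages, at least 50.0-fold lower in adipocytes (adjusted p = 8.53e-13). Aldoa, the common form, was 1.49-fold higher. Hk3, a leukocyte hexokinase, was at least 34.7-fold lower in adipocytes (adjusted p = 4.89e-12), and the phosphofructokinases Pfkl and Pfkm were 3.25-fold and 3.13-fold higher. Gapdh did not pass, with 19013 ± 434 in adipocytes and 19119 ± 439 in macrophages. Glycogen genes were higher for 10 of 11, with Ppp1r3c, which targets a phosphatase to glycogen, at 5798, 4386 and 3638 in bilayer adipocytes, against 34.5 and 17.1 in bilayer macrophages, 111-fold higher in adipocytes (adjusted p = 4.08e-13). Pygl, the liver-type phosphorylase, was lower at 54.4, 45.7 and 49.0 in bilayer adipocytes, against 338 and 377 in bilayer macrophages, 5.69-fold lower in adipocytes (adjusted p = 4.62e-09). H6pd, of the endoplasmic reticulum, was 5.92-fold higher, and Rpe, an epimerase of the pentose phosphate pathway, was 3.90-fold (above noise on 1 of 3 adipocyte arrays) lower.

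Nucleotide synthesis was the metabolic list lowest in adipocytes, with 23 of 29 tested genes lower, 4 higher and a median log2 difference of -1.39. Rrm2, the ribonucleotide reductase subunit of dividing cells, read 122, 78.7 and 96.0 in bilayer adipocytes, against 1162 and 1375 in bilayer macrophages, 11.3-fold lower in adipocytes (adjusted p = 4.51e-11). Adssl1, of adenylate synthesis, was 11.7-fold lower in adipocytes (adjusted p = 7.35e-13), Tk1, thymidine kinase, 6.67-fold lower and Rrm1 5.16-fold lower. Xdh, which degrades purines to urate, and Impdh1, of guanine nucleotide synthesis, were higher, with Xdh at 829, 893 and 1085 in bilayer adipocytes, against 235 and 246 in bilayer macrophages, 3.69-fold higher in adipocytes (adjusted p = 6.19e-10). Tyms, Shmt2 and Mthfd1, of the folate cycle that feeds thymidylate and purine synthesis, were 3.59-fold, 2.71-fold and 2.58-fold lower. Markers of dividing cells moved with these lists. All 12 tested markers, of 14 on the array, were lower in adipocytes, and their summed intensity was 2695 to 2773 per array in adipocytes against 26478 to 27218 in macrophages, with Ccna2 not above noise on any adipocyte array. Their part in the nucleotide result was not tested. Phgdh, the first step of serine synthesis, stood apart from the folate genes with 1159 ± 137 in adipocytes and -0.957 ± 1.48 in macrophages, at least 43.5-fold higher in adipocytes (adjusted p = 3.13e-15).

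Lipid mediator, antioxidant and iron genes lay on both sides. The leukotriene pathway had its first enzyme and activator in macrophages, with Alox5 at 1.97, -3.14 and -4.45 in bilayer adipocytes, against 757 and 760.5 in bilayer macrophages, at least 28.8-fold lower in adipocytes (adjusted p = 2.91e-13), and Alox5ap at -5.46, 10.3 and -2.13 in bilayer adipocytes, against 6330.0 and 6198 in bilayer macrophages, at least 234-fold lower in adipocytes (adjusted p = 4.56e-14). Ltc4s, which makes leukotriene C4 from their product, was in adipocytes at 2866, 2733 and 2761 in bilayer adipocytes, against 32.6 and 23.6 in bilayer macrophages, 63.9-fold higher in adipocytes (adjusted p = 8.38e-15). The 3 genes separated the layers without overlap, as did 78.0% of all tested genes. Tbxas1, thromboxane synthase, was at least 8.62-fold lower and Hpgds, prostaglandin D synthase, 8.14-fold (above noise on 1 of 3 adipocyte arrays) lower, while Ptgis, prostacyclin synthase, was 60.5-fold higher in adipocytes, above noise on 1 of 2 macrophage arrays (adjusted p = 7.61e-13), opposite to the prostacyclin receptor Ptgir given above. Of 26 antioxidant genes 17 were higher, led by glutathione transferases, with Mgst1 at 15472, 16986 and 20056 in bilayer adipocytes, against 184 and 177 in bilayer macrophages, 88.7-fold higher in adipocytes (adjusted p = 5.37e-16), and Gstm2 at least 257-fold higher. Gpx1, glutathione peroxidase, was lower at 7755, 6796 and 7685 in bilayer adipocytes, against 20102 and 20985 in bilayer macrophages, 2.77-fold lower in adipocytes (adjusted p = 5.39e-10). Txnrd1, thioredoxin reductase, was 3.76-fold lower. Iron export uses a transporter and a ferroxidase, and these lay on different sides. Slc40a1, the exporter ferroportin, read 392, 460.0 and 558 in bilayer adipocytes, against 1609 and 1940.0 in bilayer macrophages, 3.71-fold lower in adipocytes (adjusted p = 2.82e-09), and the ferroxidases Cp and Heph were 33.6-fold (above noise on 1 of 2 macrophage arrays) and 32.6-fold (above noise on 1 of 2 macrophage arrays) higher. Slc11a1, which pumps iron out of the phagosome, was 16.8-fold lower in adipocytes (adjusted p = 1.54e-14), and Hmox1, which breaks down haem, 7.56-fold higher in adipocytes (adjusted p = 1.01e-12).

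Lysosomal, transport and thermogenic genes completed the metabolic lists. The cathepsins Ctss, Ctsc, Ctsh and Ctsz were lower in adipocytes, with Ctss at 20.5, 11.7 and 14.1 in bilayer adipocytes, against 787 and 683 in bilayer macrophages, 24.0-fold lower in adipocytes (adjusted p = 4.66e-09). Ctsk, known from bone-resorbing cells, was higher at 459, 426 and 518 in bilayer adipocytes, against -0.966 and 1.94 in bilayer macrophages, at least 17.9-fold higher in adipocytes (adjusted p = 4.66e-13). The amino acid transporters were led by Slc1a3, for glutamate, at 7221, 7732 and 7226 in bilayer adipocytes, against 3.54 and 0.710 in bilayer macrophages, at least 275-fold higher in adipocytes (adjusted p = 5.56e-18), and Slc7a8, for neutral amino acids, at -4.67, 4.34 and 8.87 in bilayer adipocytes, against 2774 and 2757 in bilayer macrophages, at least 103-fold lower in adipocytes (adjusted p = 2.63e-13). For sterols, Apoc1, an apolipoprotein, was at least 374-fold higher in adipocytes (adjusted p = 4.21e-18). Cyp27a1, which makes 27-hydroxycholesterol, and Nceh1, a cholesteryl ester hydrolase, were 34.3-fold (above noise on 1 of 3 adipocyte arrays) and 39.2-fold lower. Msmo1, a sterol oxidase, was 9.25-fold higher, the largest difference among the 20 tested cholesterol synthesis genes. Ppargc1a, a mitochondrial coactivator, read 141, 165 and 103 in bilayer adipocytes, against -1.48 and -6.13 in bilayer macrophages, at least 5.58-fold higher in adipocytes (adjusted p = 2.28e-09), and Cox8b, a respiratory subunit of brown fat and muscle, 1564, 1295 and 1527 in bilayer adipocytes, against 5.94 and 3.81 in bilayer macrophages, at least 54.8-fold higher in adipocytes (adjusted p = 3.79e-14). Of the 12 tested creatine and thermogenic genes 8 were higher and 3 lower, the lower ones being Ckb, given above, Gatm, of creatine synthesis, and Ckmt2, a mitochondrial creatine kinase near noise.

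The last comparison asked whether the split between the lines was the same in the bilayer as between the lines grown alone. Of 12324 genes tested, 316 (2.56%) differed, 186 (1.51%) with a change toward adipocytes and 130 (1.05%) toward macrophages, where a change is the log2 line difference in bilayer minus that in monolayer. The split was wider in bilayer for 132 of these genes, narrower for 134 and turned round for 50. Turned round means that the line difference had unequal signs in the 2 settings, and neither difference had to be called or above noise. Without macrophage bilayer replicate 1 or 2 the count was 95 or 127, and of 26 genes named for a change 13 lost their call in at least 1 alternative. Within the lists 11 of 166 tested ligand genes changed toward adipocytes and 3 toward macrophages, as did 8 and 4 of 246 receptor genes and 26 and 9 of 448 metabolic genes.

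Ligand genes that moved toward adipocytes included Sema3g, Ccl2 and Hp. Hp read 9045, 11774 and 10055 in bilayer adipocytes and 1.23 and -3.17 in bilayer macrophages, against 2787, 2970.4 and 3294 in monolayer adipocytes and -3.99 and -4.81 in monolayer macrophages, a change of 1.71 ± 0.15 (SE, adjusted p = 5.58e-05). Ccl2 read 589.8, 675 and 576 in bilayer adipocytes and 3002 and 3152 in bilayer macrophages, against 213, 249 and 173 in monolayer adipocytes and 3720.4 and 3657 in monolayer macrophages, a change of 1.74 ± 0.16 (SE, adjusted p = 7.15e-05). Macrophages had more Ccl2 than adipocytes in both settings. Adipocyte values were higher in the bilayer without overlap, in a gene picked for its change, so this separation is not a result of its own. Sema3g had means of 299.9 in bilayer adipocytes and -1.52 in bilayer macrophages, against 70.6 in monolayer adipocytes and 3.43 in monolayer macrophages, a change of 2.14 ± 0.28 (SE, adjusted p = 0.0011). Among receptors P2ry6, for uridine diphosphate, had means of 57.8 in bilayer adipocytes and 4887 in bilayer macrophages, against 3.28 in monolayer adipocytes and 5553 in monolayer macrophages, a change of 2.12 ± 0.20 (SE, adjusted p = 8.63e-05). These 4 calls held in all alternatives run. Osmr read 1182, 1219 and 1403 in bilayer adipocytes and 47.0 and 34.9 in bilayer macrophages, against 325, 339.9 and 343 in monolayer adipocytes and 23.7 and 12.7 in monolayer macrophages, a change of 1.12 ± 0.20 (SE, adjusted p = 0.011). It was higher in the bilayer in both lines, and its call was lost without macrophage monolayer replicate 1 or macrophage bilayer replicate 2, with changes of 0.88 and 0.96. The call was also lost with an offset of 4, where the change was 0.85, with no filter on dim probes and with no intensity trend.

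Genes that moved toward macrophages included Il1r2, the decoy receptor of interleukin 1, which read -4.02, -5.54 and 2.13 in bilayer adipocytes and 262 and 207 in bilayer macrophages, against -7.50, 3.06 and 5.11 in monolayer adipocytes and 22.5 and 30.8 in monolayer macrophages, a change of -2.71 ± 0.33 (SE, adjusted p = 0.000687). Arg1, arginase, a gene of alternative activation in mouse macrophages, read -4.37, -4.36 and -3.48 in bilayer adipocytes and 107 and 113 in bilayer macrophages, against -3.66, -0.721 and -5.22 in monolayer adipocytes and -2.24 and 3.42 in monolayer macrophages, a change of -2.84 ± 0.34 (SE, adjusted p = 0.000687). Neither gene was above noise on any adipocyte array, and the bilayer macrophage arrays read higher than the monolayer ones for both. The genes were picked for their change on these arrays, so this separation is part of the choice and not a result. Gpat3, a glycerol phosphate acyltransferase, had a narrower split, with means of 1290.4 in bilayer adipocytes and 46.4 in bilayer macrophages, against 1738 in monolayer adipocytes and 4.95 in monolayer macrophages, a change of -1.99 ± 0.19 (SE, adjusted p = 8.63e-05). These 3 calls held in all alternatives run.

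**Figure D5:**
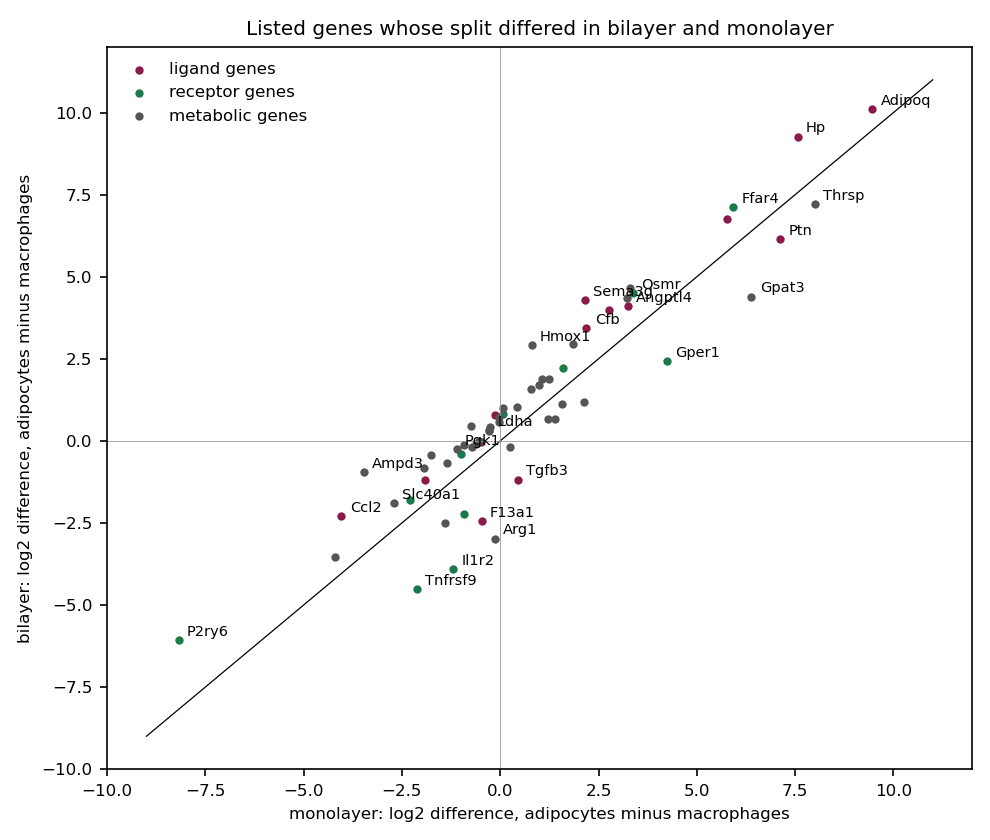
Each point is 1 listed gene past the test for a change, with its log2 difference of adipocytes minus macrophages in bilayer (vertical axis) against that in monolayer (horizontal axis); the diagonal marks an equal split. Genes above the diagonal changed toward adipocytes, as Hmox1 and Ampd3 did, and genes below it toward macrophages, as Arg1 and Il1r2 did.

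Glycolysis was the metabolic list with the most changes, 8 of 25 genes tested for it changing toward adipocytes and 0 toward macrophages. Ldha, lactate dehydrogenase, read 21388, 21053 and 20179 in bilayer adipocytes and 16613 and 16915 in bilayer macrophages, against 9859.7, 10574 and 12236 in monolayer adipocytes and 14075 and 12328 in monolayer macrophages, a change of 0.60 ± 0.12 (SE, adjusted p = 0.016). Pgk1, phosphoglycerate kinase, read 9479.8, 10209 and 8288 in bilayer adipocytes and 11988 and 10265 in bilayer macrophages, against 4216, 4788 and 4955 in monolayer adipocytes and 10518 and 9611 in monolayer macrophages, a change of 0.86 ± 0.14 (SE, adjusted p = 0.005). In both genes the adipocyte arrays of the bilayer lay above those of the monolayer without overlap. Both were named for their change on these arrays, so this separation is part of the choice and not a result. The calls of both were lost with no intensity trend and with no filter on dim probes. That of Pgk1 was also lost with the mean of its probes, at 0.60. That of Ldha was also lost without macrophage monolayer replicate 1 or macrophage bilayer replicate 1 or 2, with changes of 0.50, 0.58 and 0.61. Hmox1 read 6925, 6548 and 6733 in bilayer adipocytes and 945 and 814 in bilayer macrophages, against 1742, 1905 and 2202 in monolayer adipocytes and 1106 and 1115 in monolayer macrophages, a change of 2.12 ± 0.13 (SE, adjusted p = 1.82e-06). Ampd3, AMP deaminase, read 374, 327 and 335 in bilayer adipocytes and 691 and 667 in bilayer macrophages, against 37.0, 47.6 and 56.0 in monolayer adipocytes and 647 and 704 in monolayer macrophages, a change of 2.52 ± 0.18 (SE, adjusted p = 6.21e-06). For both genes the bilayer adipocytes stood above the monolayer adipocytes by more than the spread of either group, which is likewise part of their choice. Both calls held in all alternatives run. Lipa, higher in macrophages, had a narrower split in bilayer, with means of 1801 in bilayer adipocytes and 3165 in bilayer macrophages, against 1302 in monolayer adipocytes and 5040.2 in monolayer macrophages, a change of 1.11 ± 0.17 (SE, adjusted p = 0.0037). Lipa was not called with no intensity trend or with no filter on dim probes.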

How the data were processed

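Messenger RNA of 2 mouse cell lines was hybridised as biotin-labelled complementary RNA to 10 Illumina bead arrays, per the labels. The deposited values were background-subtracted, normalized probe intensities on a linear scale, per the file headers, and the normalization method is not given in the sources used here. The submitters' processing notes name GenomeStudio 2011.1. A further 20 value columns could not be tied to samples and were not used, so no detection p-value and no slide entered a test.

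Of 45281 probes, 34885 had 1 gene symbol in the platform annotation, 18 several and 10378 none. Only the first were used. A gene was represented by its brightest probe that exceeded the noise bound, the 99th percentile of the sizes of values below 0, on at least 2 of the 5 bilayer arrays, or of 10 for the change of the split. Where another probe of a called gene passed, it pointed the other way for 565 of 3626 genes, and for 4 of the 110 such genes named in the text (Fmn2, Rarres2, Slit2 and Tmem241). Values below 0 were set to 0 and log2(intensity + 16) was fitted in limma 3.58.1 (R 4.3.3) over 10 arrays in 4 groups, with an intensity trend and Benjamini-Hochberg adjustment over all genes tested, called at 0.05. For a gene not above noise in a line, each array of that line was raised to at least the noise bound before its mean was taken, which gives the lower bound of the fold. The fit was tested on simulated data for 11240 genes and recovered 55.3% of 76 genes changed by 0.5 and 100% of 76 changed by 2 on the log2 scale, with 2 false calls. The changed genes were drawn from those bright on all 10 arrays, and the simulated lines did not differ otherwise. These values thus do not describe dim genes or data in which 71.6% of genes differ. Values after ± are SDs of intensities (n = 3 adipocyte and n = 2 macrophage arrays) unless given as SE.

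The comparison, the gene lists and the pairs were chosen with earlier results of these data known. The genes named were the 10 largest differences each way among called genes whose groups did not overlap, and up to 4 members each way in every list. Members in a list's minority of 3 or fewer, genes of split pairs and markers were also named. So were the 10 largest and the listed changes of the split. Of 1188 listed genes, 1089 were on the array under the listed or an older symbol, and the rest were not analysed here. Promoters were matched by symbol to RefSeq windows on GRCm38.p6. Replicate numbers were not used to pair samples across lines. Deviations of arrays with the same number correlated at 0.005 and -0.006. With 2 macrophage arrays, whose deviations mirror each other, these values cannot decide whether samples were paired. The alternatives tried were other offsets, filters, scalings, probe rules, a replicate block and omission of each array.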

Additional observations from a re-analysis of the deposited data

Results flagged for a closer look

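The split between the lines differed in bilayer and monolayer for 316 genes, by a test of the difference itself. The 10 largest changes in each direction are given here as log2 line difference in bilayer minus that in monolayer. Toward macrophages they were Arg1 (-2.84), Il1r2 (-2.71), Tnfrsf9 (-2.40), Rgcc (-2.09), Gpat3 (-1.99), F13a1 (-1.98), Cox4i2 (-1.86), Gper1 (-1.80), Tgfb3 (-1.63) and Fmn2 (-1.52). Toward adipocytes they were Oasl2 (2.97), Ampd3 (2.52), Slc25a34 (2.22), Sema3g (2.14), Hmox1 (2.12), P2ry6 (2.12), Tmem241 (2.00), Ghrh (1.94), Mx2 (1.93) and Tmem82 (1.86). Oasl2 and Mx2, interferon-induced genes, turned round, with Oasl2 means of 243 in bilayer adipocytes and 125 in bilayer macrophages, against 37.5 in monolayer adipocytes and 212 in monolayer macrophages and Mx2 means of 66.2 in bilayer adipocytes and 14.4 in bilayer macrophages, against 12.8 in monolayer adipocytes and 24.6 in monolayer macrophages. Ghrh, the hypothalamic hormone that releases growth hormone, was bright in adipocytes, with means of 6653 in bilayer adipocytes and 3.26 in bilayer macrophages, against 1976 in monolayer adipocytes and 6.67 in monolayer macrophages. Gper1, an oestrogen-responsive receptor, had means of 201 in bilayer adipocytes and 23.9 in bilayer macrophages, against 323 in monolayer adipocytes and 1.36 in monolayer macrophages, and Rgcc, a regulator of the cell cycle, 425 in bilayer adipocytes and 95.6 in bilayer macrophages, against 389 in monolayer adipocytes and 8.28 in monolayer macrophages. Cox4i2, F13a1, Fmn2, Ghrh, Slc25a34, Tgfb3, Tmem241, Tmem82 and Tnfrsf9 lost their call in at least 1 alternative, and the other 11 of these 20 kept it in all that were run.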

How the results depend on the processing

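The count of genes that differed between the layers stayed between 7948 and 8198 under other offsets, filters, scalings and probe rules, and was 4469 when a change of at least 2-fold was also required. Leaving out 1 array gave 6950 to 8031 genes. Of the 22 split pairs, 18 remained at 2-fold, and leaving out 1 array gave 10 to 24. The lowest counts, 10 and 12, came without macrophage bilayer replicate 1 or 2, where fewer genes could pass the filter. With the genes chosen on all arrays, an alternative added after seeing the data, both counts were 20, with 7558 and 7511 genes. The change of the split was less settled. Its 316 genes became 106 with no filter on dim probes, 80 without the intensity trend and 94 at 2-fold, and the cause was not tested. Leaving out 1 array gave 95 to 320, the lowest being 95 and 127 without macrophage bilayer replicate 1 or 2, or 96 and 125 with the genes chosen on all arrays. It was 142 and 139 without macrophage monolayer replicate 1 or 2, and 183 and 186 without adipocyte monolayer replicate 1 or 2. With a replicate block the counts were 8067, 309 and 22 pairs, so the block moved no count by over 1.5 times. It rests on replicate numbers that are not known to pair the samples. Among the genes named for the layers Tlr4 turned round, at 0.39 on the log2 scale with the mean of its probes, 8 lost their call in at least 1 alternative (Adipor1, Clcf1, Efna1, Elovl5, Fzd6, Il34, Nrp2 and S100a8) and Acadl gained one. Of 26 named for the change of the split, 13 lost it in at least 1. The number of arrays, 2 for macrophages, limits precision.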
